A study of Mus musculus with 82 samples.

Results

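The expression of 10 genes of leukocyte recruitment was followed in primary murine aortic vascular smooth muscle cells (aVSMC), namely 8 chemokines (Ccl2, Ccl7, Ccl11, Cxcl1, Cxcl5, Cxcl12, Cxcl16 and Cx3cl1), the chemokine scavenging receptor gene Ackr3 and the growth factor gene Csf1. They were taken by name from the deposited count tables, where each name matched exactly 1 gene, so that 10 of 55401 genes are described here. The cells came from the aortas of C57BL/6 mice, were grown for up to 7 passages in a medium that itself held EGF (10 µg/L), and were kept without serum and supplements for 24 h before the incubations. EGF (10 µg/L) activates EGFR, angiotensin II (AngII, 10 nM) activates AT1R, and U46619 (1 µM) is a stable thromboxane analog that activates the thromboxane receptor TP. After 24 h, RNA-sequencing covered Control, the single stimuli, the pairs EGF+AngII and EGF+U46619 and the triple incubation EGF+AngII+U46619, with n = 6 cultures each, 1 from each of 6 mice. After 48 h there were 2 batches of n = 5 cultures per group. Both batches included Control and EGF cultures, which makes n = 10 for these. U46619 and EGF+U46619 were in the first, named the EGF/U46619 batch, while AngII and EGF+AngII were in the EGF/AngII batch. A culture set is the 4 cultures of 1 batch with the same replicate number. Control cultures received the serum-free medium alone.

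Chemokines are small secreted proteins that leukocytes follow along a gradient. CC chemokines such as Ccl2 and Ccl7 draw monocytes and Ccl11 draws eosinophils, whereas Cxcl1 and Cxcl5 draw neutrophils and Cxcl12 guides leukocytes and progenitor cells. Cxcl16 and Cx3cl1 are made as membrane-bound proteins that can also be shed. Ackr3 binds Cxcl12 and removes it, and Csf1 is the main growth and survival factor of macrophages. In the vessel wall these genes are known from inflammation and atherosclerosis.

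In mm10/GRCm38, the genes of Ccl2 (chr11:82035571-82037453), Ccl7 (chr11:82045712-82047525) and Ccl11 (chr11:82057823-82062955) lie side by side. Cxcl5 (chr5:90759360-90761624) and Cxcl1 (chr5:90891241-90893115) belong to a second cluster. The others are single genes: Cxcl12 (chr6:117168535-117181367), Cxcl16 (chr11:70453983-70459984, minus strand), Cx3cl1 (chr8:94772009-94782427), Ackr3 (chr1:90203980-90216751) and Csf1 (chr3:107741048-107760469, minus strand). All 10 are protein-coding, and the counts cover their exons.

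RefSeq promoters (GRCm38.p6, the 250 bases before the start) were at hand for 5 of the 10 genes, namely Csf1, Ackr3, Cxcl1, Cxcl12 and Cx3cl1. The promoters of 3 genes are shown because Csf1 rose and Ackr3 fell with U46619 below, while Cxcl1 is the textbook NF-kB gene of the set. Capitals mark a match to the kappaB motif of NF-kB on either strand, and each sequence reads 5′ to 3′ on the strand of its gene.
Csf1, chr3:107760470-107760719, minus strand: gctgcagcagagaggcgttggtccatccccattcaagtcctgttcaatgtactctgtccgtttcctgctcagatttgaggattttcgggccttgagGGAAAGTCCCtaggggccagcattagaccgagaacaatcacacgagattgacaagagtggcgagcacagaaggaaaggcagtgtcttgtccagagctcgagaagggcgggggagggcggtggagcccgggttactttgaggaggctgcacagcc
Cxcl1, chr5:90890995-90891244, plus strand: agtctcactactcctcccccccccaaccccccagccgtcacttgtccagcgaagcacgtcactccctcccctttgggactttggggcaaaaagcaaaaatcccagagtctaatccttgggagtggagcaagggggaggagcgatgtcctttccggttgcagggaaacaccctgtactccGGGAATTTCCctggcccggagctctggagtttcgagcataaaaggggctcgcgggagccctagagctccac
Ackr3, chr1:90203730-90203979, plus strand: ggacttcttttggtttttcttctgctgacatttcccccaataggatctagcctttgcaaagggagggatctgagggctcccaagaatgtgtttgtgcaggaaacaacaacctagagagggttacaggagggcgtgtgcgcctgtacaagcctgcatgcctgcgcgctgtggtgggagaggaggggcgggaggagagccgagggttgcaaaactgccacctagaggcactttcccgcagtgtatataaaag
The match ends 145 bases before the start of Csf1 and 62 bases before that of Cxcl1. No kappaB match was found in the windows of Ackr3, Cxcl12 and Cx3cl1. The AP-1 motif TGANTCA, the TEAD motif GGAATG and the CArG box of serum response factor had no match in the windows of the 5 genes. Of 32851 RefSeq promoters of this length, 5.0% held the kappaB motif, 6.75% AP-1, 12.6% TEAD and 1.47% the CArG box. These matches are letters in a window, and binding was not measured.

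Each library held 16483529 to 20818809 counts after 24 h and 19936925 to 33916114 after 48 h. Values below are FPM, fragments per 1000000 of a library size scaled by the trimmed mean of M values, computed for each time point apart, so levels after 24 and 48 h were not tested against each other. All genes of chromosomes 9, X, Y and MT, and the genes of chromosome 8 that start beyond base 97876154, are listed at 0 in all 82 libraries (7732 genes), Cx3cl1 lying before that point. Of the smooth muscle markers, Acta2 was measured in 82 libraries (348 to 14940 FPM after 24 h), while Tagln and Cnn1 lie on chromosome 9. Markers of other cells differed between mice. In the 24 h Control cultures, the sum of 10 endothelial markers, of which Cdh5 is listed at 0 everywhere, was 18.5 FPM in mouse 1, 9.62 in mouse 2, 69.7 in mouse 3, 957 in mouse 4, 561 in mouse 5 and 2572 in mouse 6. The sum of 9 fibroblast markers, with Clec3b and Dpep1 at 0 everywhere, lay between 677 and 3514 FPM in the same cultures. The 12 leukocyte markers summed to 22.0 to 121 FPM after 24 h, where the defining genes Ptprc, Adgre1 and C1qa stayed at or below 0.188 FPM and Tyrobp at 0. Other genes of the list were higher, Lyz2 up to 110 FPM, Cd14 up to 40.5, Csf1r up to 27.9, Laptm5 up to 7.83 and Cd68 up to 5.32 FPM. After 48 h the leukocyte sum reached 1076 FPM, with Adgre1 up to 33.4 FPM. In bulk samples such as these, fewer cells of a type cannot be told apart from less RNA per cell.

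A single library was closest to a set other than its own. The Control library of set 4 in the EGF/AngII batch correlated with the other libraries of its own set at a median of −0.279, and with those of set 2 at 0.850 (deviations from group means, over genes). Its endothelial sum was 2679 FPM, against 396 to 434 in the other libraries of set 4 and 2512 to 2923 in the EGF, AngII and EGF+AngII libraries of set 2. The Control library of set 2 stood between them at 1660 FPM. Its leukocyte marker sum was 298.5 FPM, against 53.1 to 56.7 FPM in the EGF, AngII and EGF+AngII libraries of set 2. No fit left out this library alone. Fits without the first library, and within the EGF/U46619 batch, which holds neither, are given beside the results after 48 h where they change a call or move a value. U46619 and AngII were each in 1 batch only, while the fit over both batches used the Control cultures of both.

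**Figure D1:**
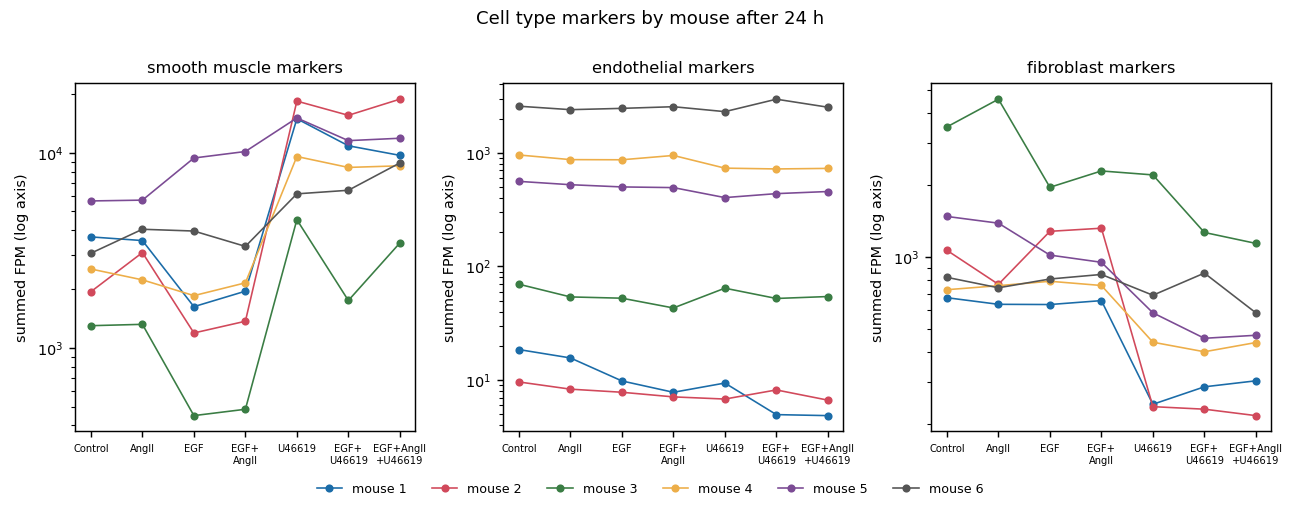
Summed FPM (log axis) of the smooth muscle, endothelial and fibroblast marker lists in each of the 7 groups after 24 h, with 1 line per mouse. The endothelial sum in Control cultures runs from 9.62 FPM in mouse 2 to 2572 FPM in mouse 6, and the fibroblast sums of the U46619 groups lie mostly below those of Control.

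Cxcl12 and Csf1 were the most abundant members per length. In the Control cultures after 24 h, Cxcl12 had 353 ± 201 FPM per kb of exon (SD, n = 6), Csf1 had 151.7 ± 65.7, Ccl7 had 52.1 ± 23.5 and Ccl2 had 41.3 ± 35.2. Cx3cl1 followed with 20.5 ± 10.9 FPM per kb, Cxcl16 with 10.4 ± 6.22, Ackr3 with 5.16 ± 4.21, Ccl11 with 1.86 ± 2.72, Cxcl1 with 1.69 ± 1.27 and Cxcl5 with 0.131 ± 0.248. The order held in every mouse for 3 neighbouring pairs, Csf1 above Ccl7, Cxcl16 above Ackr3 and Cxcl1 above Cxcl5. It did not hold for Ccl7 and Ccl2 (4 of 6 mice), Ackr3 and Ccl11 (4 of 6) or Ccl11 and Cxcl1 (2 of 6). Cxcl12 exceeded Csf1, Ccl2 exceeded Cx3cl1 and Cx3cl1 exceeded Cxcl16 in 5 of 6 mice each. After 48 h, the Control cultures gave 387 ± 188.2 FPM per kb for Cxcl12 (n = 10), 198 ± 61.4 for Csf1, 132 ± 80.7 for Ccl7, 95.0 ± 60.2 for Ccl2 and 19.3 ± 4.76 for Cx3cl1. The lower ranks were Cxcl16 (12.9 ± 7.15), Ackr3 (10.1 ± 4.90), Cxcl1 (6.17 ± 2.65), Ccl11 (0.916 ± 1.71) and Cxcl5 (0.557 ± 0.399 FPM per kb). The order of the means held in 10 of 10 cultures for Ccl2 above Cx3cl1 and Ackr3 above Cxcl1, in 9 for Cxcl1 above Ccl11, in 8 for Cxcl12 above Csf1, Csf1 above Ccl7, Ccl7 above Ccl2 and Cxcl16 above Ackr3, and in 7 for Cx3cl1 above Cxcl16. Ccl11 lay above Cxcl5 in 2 of 10, 1 culture having 6.10 FPM.

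Levels differed widely between mice. Control cultures after 24 h held 3.23 FPM of Ccl2 in mouse 1 and 107 FPM in mouse 4. Ackr3 was measured at 1.85 and 1.25 FPM in mice 1 and 2, at 14.02 FPM in mouse 3 and at 21.3, 31.6 and 33.6 FPM in mice 4, 5 and 6. The endothelial marker sum given above was likewise lowest in mice 1 and 2 and highest in mouse 6, while mice 4 and 5 were in the opposite order. Its part in the Ackr3 levels was not tested. Cxcl1 was at 0.120 and 0.852 FPM in mice 1 and 2 and between 3.02 and 6.34 FPM in the others. For Cxcl12 the order was different, with 5120 FPM in mouse 1, 4428 in mouse 4 and 737 in mouse 6. The mouse was a term of every fit, as in the methods of the study.

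The first question was which members each stimulus changed after 24 h. A member was called when its false discovery rate (FDR, Benjamini-Hochberg adjusted over all genes tested) was under 0.05 in DESeq2 as well as in the quasi-likelihood test of edgeR, provided that 1 of the compared groups had a mean of 5 FPM or more. Cxcl5 was too low for the test after 24 h, with 0 to 25 counts per Control library and none in 3 of them, which leaves 9 members tested among 14528 genes. A count of 0 allows up to 3 counts, which are worth 0.134 to 0.218 FPM in the libraries of this time point, for counting error only. The comparisons with Control share the Control cultures.

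U46619 raised Csf1 and lowered Ackr3 and Cxcl16. That is 1 of 9 members higher and 2 lower, where 12.9% of all genes tested were called higher, 14% lower and 26.9% in either direction. The median log2-fold change of the 9 members was −0.10, against −0.06 over all genes tested. EGF+U46619 raised Csf1 and lowered Ackr3, Cxcl16 and Cxcl12, 1 member higher and 3 lower, with 16.2% of genes called higher, 16% lower and 32.1% in all. With EGF+AngII+U46619, Csf1 was higher and Ackr3 and Cxcl12 were lower, while 17.4% of genes were called higher, 15.8% lower and 33.2% in all. With 3, 4 and 3 of 9 members called, these counts are not read as particular to the members. Without mouse 2, Csf1 alone was called with U46619, and without any 1 of mice 1 to 5 only Csf1 and Ackr3 were called with EGF+U46619.

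Csf1, the macrophage growth factor, was measured at 409 FPM (lowest), 761 FPM (median) and 1265 FPM (highest) in the Control cultures. The corresponding values were 921, 2189 and 3328 FPM with U46619, 575, 2591 and 3438 FPM with EGF+U46619 and 280, 2675 and 3773 FPM with EGF+AngII+U46619. The groups overlapped, and mouse 3 gave the lowest value in each of the 3 U46619 groups. The mean rose from 801 ± 347 FPM (SD, n = 6) in Control to 2167 ± 990 FPM with U46619, for which the log2-fold change was 1.37 ± 0.31 (SE, edgeR), with an FDR of 0.00113 in edgeR and 0.000137 in DESeq2. EGF+U46619 gave 1.43 ± 0.31 (FDR = 0.000526 in edgeR) and EGF+AngII+U46619 gave 1.43 ± 0.32 (FDR = 0.000513). Csf1 was higher than Control in 6 of 6 mice with U46619 and in 5 of 6 mice with either combination.

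Mouse 3 was the exception. Its Csf1 was 623 FPM in Control, 921 FPM with U46619, 575 FPM with EGF+U46619 and 280 FPM with EGF+AngII+U46619. In mouse 2, by contrast, Csf1 was 496 FPM in Control and 3328, 3438 and 3773 FPM in the same 3 incubations. Mouse 3 also had the highest fibroblast marker sum (3514 FPM in Control) and the lowest smooth muscle sum with U46619 (4538 FPM). Their part in the Csf1 values was not tested.

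EGF or AngII alone left Csf1 near Control in these fits. Mean levels were 854 ± 414 FPM with EGF, 820 ± 366 FPM with AngII and 885 ± 491 FPM with EGF+AngII, and the log2-fold changes were 0.03 ± 0.30, −0.02 ± 0.30 and 0.02 ± 0.31. Against EGF alone, EGF+U46619 raised Csf1 by a log2-fold change of 1.41 ± 0.31 (FDR = 0.00238 in edgeR), in 6 of 6 mice.

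Ackr3, which removes Cxcl12, moved in the other direction. Its lowest, median and highest values were 1.25, 17.7 and 33.6 FPM in Control, 0.0548, 13.9 and 26.4 FPM with U46619, 0.203, 9.57 and 25.3 FPM with EGF+U46619 and 0.160, 9.04 and 24.8 FPM with EGF+AngII+U46619. The ranges overlapped, yet within each of the 6 mice all 3 incubations lay below Control. The log2-fold change was −0.96 ± 0.29 with U46619 (FDR = 0.0105 in edgeR), −1.16 ± 0.29 with EGF+U46619 (FDR = 0.00200) and −1.33 ± 0.30 with EGF+AngII+U46619 (FDR = 0.000519). With U46619 alone, the largest relative differences were in mice 1 and 2, where few fragments were counted. There, U46619 left 0.169 and 0.0548 FPM of the 1.85 and 1.25 FPM of Control. On the log2(FPM + 0.5) scale, mouse 3 had the largest fall with EGF+U46619 (−1.615) and with EGF+AngII+U46619 (−2.252). In mice 4, 5 and 6, where Ackr3 was higher, U46619 gave 20.6, 23.8 and 26.4 FPM against 21.3, 31.6 and 33.6 FPM. EGF alone gave −0.70 ± 0.29 (FDR = 0.188 in edgeR) and EGF+AngII −0.62 ± 0.29 (FDR = 0.180), which were not called.

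Cxcl16, a membrane-bound chemokine that also acts as a scavenger receptor, was measured at 11.9, 28.8 and 63.8 FPM (lowest, median, highest) in Control and at 4.06, 17.9 and 53.0 FPM with U46619. It was lower than Control in 6 of 6 mice, with a log2-fold change of −0.88 ± 0.28 (FDR = 0.0142 in edgeR). With EGF+U46619 the values were 2.72, 19.0 and 96.0 FPM, and the fitted change was −0.74 ± 0.28 (FDR = 0.0318). Mouse 6 went the other way there, from 63.8 FPM in Control to 96.0 FPM. With EGF+AngII+U46619 the change was −0.63 ± 0.28 and was not called (FDR = 0.0678 in edgeR).

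Cxcl12 fell with EGF+U46619 and with EGF+AngII+U46619. Its lowest, median and highest values were 737, 2610 and 5120 FPM in Control, 913, 1519 and 3544 FPM with EGF+U46619 and 733, 1469 and 3773 FPM with EGF+AngII+U46619. The groups overlapped. The log2-fold changes were −0.58 ± 0.22 (FDR = 0.0318 in edgeR) and −0.76 ± 0.22 (FDR = 0.00554), with lower values in 5 and 6 of 6 mice. For EGF alone the change was −0.55 ± 0.22 (FDR = 0.168), for EGF+AngII −0.56 ± 0.22 (FDR = 0.105) and for U46619 −0.48 ± 0.22 (FDR = 0.083), none of them called. EGF+U46619 differed from U46619 by −0.10 ± 0.22 and from EGF by −0.03 ± 0.22 on the log2 scale, so the combination was not shown to differ from either stimulus.

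Fibroblast markers moved with these members. Of 7 fibroblast markers tested, 6 fell with U46619, among them Pdgfra with a log2-fold change of −0.98 ± 0.21 and Dcn with −1.41 ± 0.56, and the sum went from a median of 946 FPM (677 to 3514) in Control to 513 FPM (237 to 2212). EGF+U46619 lowered 6 of them and EGF+AngII+U46619 lowered 7. Of 9 endothelial markers tested, 1 fell with U46619 (Cldn5), and the sum had a median of 315 FPM (9.62 to 2572) in Control and 234 FPM (6.80 to 2304) with U46619. Of 8 smooth muscle markers tested, 3 rose (Acta2, Lmod1 and Actg2), and the sum went from 2796 FPM (1299 to 5663) to 12250 FPM (4538 to 18400). Acta2 had the highest mean of this list over the 24 h libraries, 5486 FPM, followed by Actg2 with 383 FPM. The median log2-fold change of the 8 with U46619 was 0.25. EGF+U46619 raised 2 of them and lowered 1, and EGF+AngII+U46619 raised 3 and lowered 1. The part of these shifts in the values of Csf1, Ackr3, Cxcl16 and Cxcl12 was not tested.

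**Figure D2:**
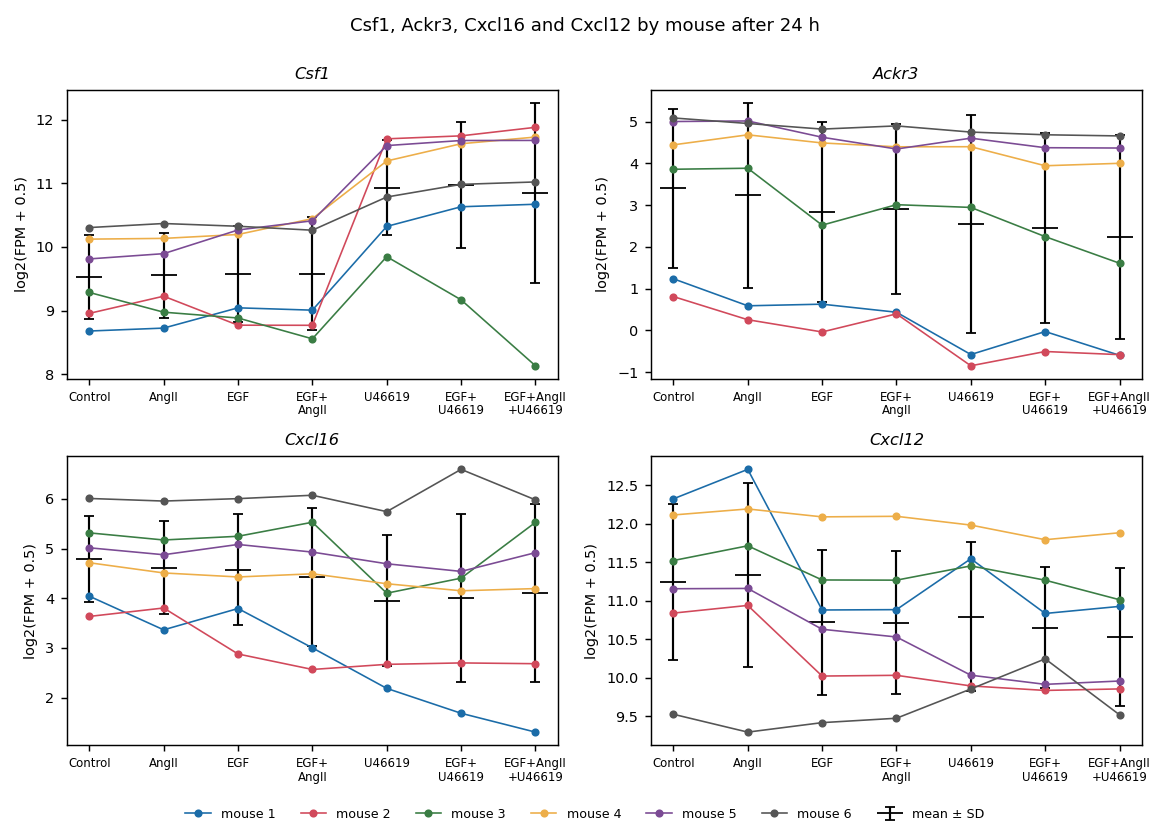
Levels of Csf1, Ackr3, Cxcl16 and Cxcl12 after 24 h as log2(FPM + 0.5) in the 7 groups, with 1 line per mouse and black bars for the mean ± SD over 6 mice. Csf1 is higher than Control with U46619 in 6 of 6 mice, while the line of mouse 3 ends at 280 FPM with EGF+AngII+U46619, and Ackr3 lies below Control in 6 of 6 mice in each U46619 group.

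With EGF no member was called, and Ccl2 and Ccl7 were highest above Control in mice 1, 2 and 3. EGF called 4 genes in all (0.0275% of those tested), 0 of them members, and DESeq2 alone called 270 genes, again with 0 members. At the level of single genes, both tools gave an unadjusted p below 0.05 for 5 of 9 members and for 2534 of 14528 genes. The 5 were Ccl2, Ccl7, Cxcl12, Cx3cl1 and Ackr3. Ccl2, the main monocyte chemokine, was measured at 3.23, 17.2 and 21.7 FPM in the Control cultures of mice 1, 2 and 3 and at 26.2, 93.5 and 61.4 FPM with EGF. Mice 4, 5 and 6 had 107, 56.9 and 76.2 FPM in Control and 143, 54.5 and 80.9 FPM with EGF. The fitted log2-fold change of Ccl2 was 1.17 ± 0.41 (FDR = 0.133 in edgeR and 0.0808 in DESeq2). Each mouse gave 1 culture per group, and its Control value is part of the difference. A larger rise from a low Control value is therefore not read as a result. Ccl7, which binds the same monocyte receptor, went from 17.9, 61.6 and 41.3 FPM to 53.0, 262 and 80.2 FPM in mice 1, 2 and 3, and from 61.6, 46.2 and 21.7 FPM to 68.3, 54.2 and 25.2 FPM in mice 4, 5 and 6. It was higher in 6 of 6 mice, by a log2-fold change of 0.91 ± 0.34 (FDR = 0.154 in edgeR).

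EGF+AngII called 472 genes (3.25%), among them 0 members, and the genes called were 0 without mouse 1, 2, 3 or 5, 531 without mouse 4 and 1122 without mouse 6. DESeq2 alone called 1325 of 14528 genes, Ccl2 and Ccl7 among them, with FDRs of 0.0225 and 0.0387, while edgeR gave 0.0621 and 0.0772. The log2-fold changes were 1.27 ± 0.41 for Ccl2, higher in 5 of 6 mice, and 1.00 ± 0.35 for Ccl7, higher in 4 of 6. Without mouse 6, whose Ccl2 differed little (76.2 FPM in Control, 85.8 FPM with EGF+AngII), Ccl2 was called by both tools.

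Where U46619 was added to EGF, Ccl7 and Ccl11 were lower than with EGF alone. This comparison called 3 of the 9 members, Csf1 higher and Ccl7 and Ccl11 lower, where 6.52% of genes were called higher, 6.31% lower and 12.8% in all. Ccl7 had 25.2, 61.2 and 262 FPM (lowest, median, highest) with EGF and 21.3, 36.1 and 53.5 FPM with EGF+U46619. The difference was −0.998 ± 0.346 on the log2 scale (FDR = 0.0439 in edgeR and 0.0411 in DESeq2), lower in 6 of 6 mice. Ccl2 was also lower in 6 of 6 mice (log2 difference −1.11 ± 0.40), with an FDR of 0.0563 in edgeR that missed the threshold. The interaction, which asks whether the effect of EGF differs with and without U46619, was −1.21 ± 0.57 for Ccl2 and −0.89 ± 0.48 for Ccl7. It called no member and no gene (0% of 14528, 0 by edgeR alone and 1 by DESeq2 alone, and 435 with both unadjusted p below 0.05), and Ccl2 was the 1 member with an unadjusted p under 0.05 (p = 0.0398, edgeR).

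Ccl11, the eosinophil chemokine, was at or near 0 in most cultures with U46619. With EGF the 6 mice had 13.0, 42.2, 3.32, 0.136, 1.54 and 0 FPM, in the order of their numbers, and with EGF+U46619 they had 0, 0.102, 0.6249, 0, 0 and 0.0518 FPM. Levels above 1 FPM with EGF were thus seen in mice 1, 2, 3 and 5. The difference was −5.31 ± 1.07 on the log2 scale (FDR = 0.00113 in edgeR), and since 3 of the 6 libraries had no count its size depends on the prior count of the fit. In Control, Ccl11 was at 2.45, 7.76, 0.260, 0.144, 0.945 and 0.517 FPM, and with U46619 it was at 0, 0.110, 0.101, 0, 0.0532 and 0 FPM. This difference had an FDR of 0.00169 in edgeR and 7.52e-05 in DESeq2 but was not called, because both means (2.01 and 0.0439 FPM) lay under 5 FPM. Mouse 3 again stood apart with EGF+AngII+U46619, where it had 2.48 FPM and the other mice had at most 0.168 FPM. The Ccl7 call was lost without any 1 of mice 1 to 5. Without mouse 2, which had the highest Ccl7 and Ccl11 with EGF, only Csf1 of the 3 members was called against EGF.

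Cx3cl1, the membrane-bound fractalkine, responded differently from mouse to mouse. With U46619 it went from 62.3 to 277 FPM in mouse 1, from 12.2 to 37.5 FPM in mouse 2 and from 97.9 to 142 FPM in mouse 6. In mice 3, 4 and 5 it went from 66.2, 114 and 131 FPM to 56.1, 72.8 and 62.0 FPM. With 3 mice higher and 3 lower, the fitted log2-fold change of 0.43 ± 0.36 was not called (FDR = 0.370 in edgeR). EGF gave higher Cx3cl1 in 5 of 6 mice (0.81 ± 0.36, FDR = 0.226) and EGF+AngII in 6 of 6 (0.77 ± 0.36, FDR = 0.174), neither of them called. Mice 1 and 2 were those with the lowest endothelial marker sums, whereas mouse 6 had the highest. The part of these sums in the Cx3cl1 values was not tested.

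Cxcl1 showed no called difference in any comparison after 24 h. Its group means lay between 3.04 and 3.58 FPM, under the minimum of 5 FPM, and the largest single value was 10.2 FPM in mouse 6 with U46619. Cxcl5 had group means of 0.0481 to 0.256 FPM and its counts were 25 at most.

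AngII alone called no member and no gene after 24 h (0% of 14528 genes, 0 by edgeR and 0 by DESeq2 alone). Before adjustment, 61 genes and 0 members had p below 0.05 with both tools. The 9 log2-fold changes lay between −0.43 (Ccl11, SE 0.85) and 0.13 (Cxcl12, SE 0.22). Adding EGF to U46619 also called 0 members and 0% of genes (0 by edgeR and 1 gene by DESeq2 alone, and 358 genes but 0 members with both unadjusted p below 0.05). Adding AngII to EGF+U46619 called 0 members and 0% of genes (0 by either tool alone, and 754 genes but 0 members at an unadjusted p under 0.05 in both).

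**Figure D3:**
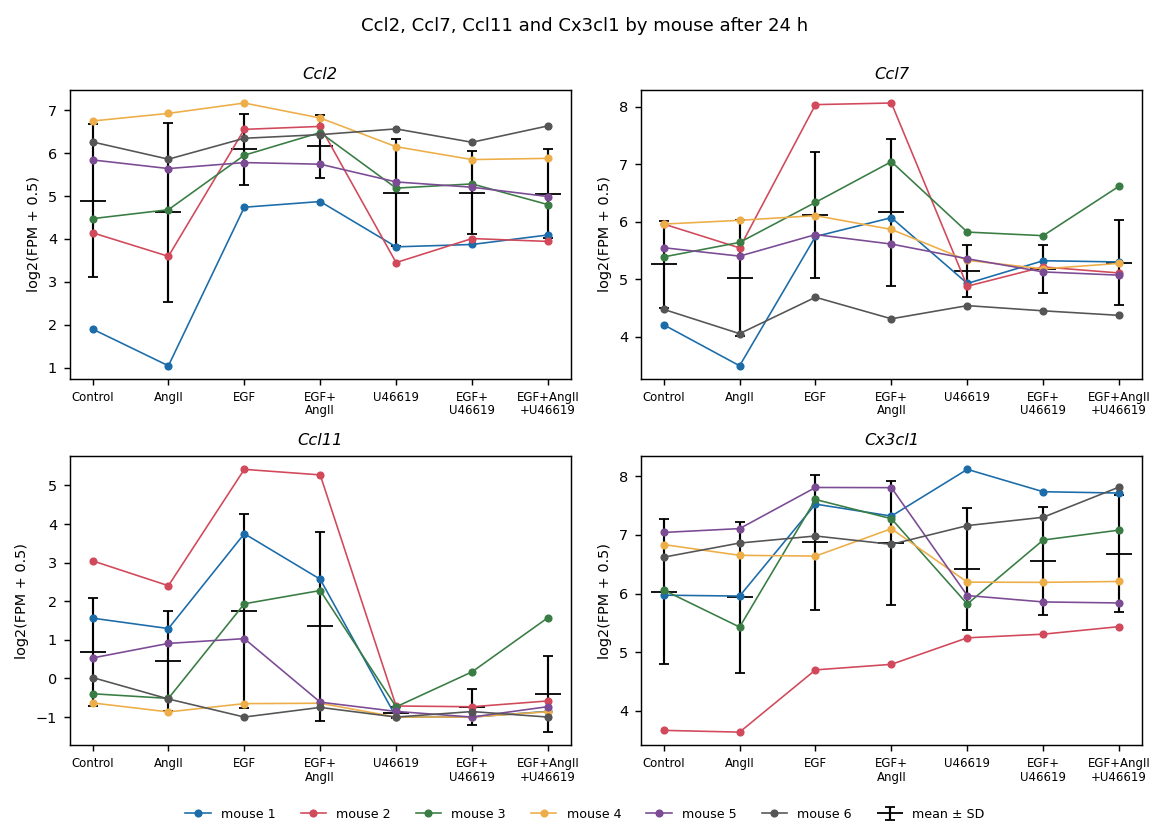
Levels of Ccl2, Ccl7, Ccl11 and Cx3cl1 after 24 h as log2(FPM + 0.5) in the 7 groups, with 1 line per mouse and black bars for the mean ± SD over 6 mice. The lines of mice 1, 2 and 3 rise from Control to EGF for Ccl2, Ccl7 and Ccl11, most lines of Ccl11 lie at the bottom of the panel in the U46619 groups, and the Cx3cl1 lines with U46619 go up in 3 mice and down in 3.

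After 48 h the question was which of these differences were still measured. U46619 lowered Cx3cl1 and called no other member, 0 of 9 higher and 1 lower, where 2.44% of genes were called higher, 1.61% lower and 4.05% in all. EGF+U46619 lowered Cx3cl1 and raised Csf1, with 3.84% of genes called higher, 2.99% lower and 6.83% in all. EGF+U46619 against EGF called Cx3cl1 alone, as lower, with 2.64% of genes higher, 2.2% lower and 4.83% in all. The members' medians of the log2-fold change were −0.32, −0.41 and −0.51, against −0.02 over all genes tested in each comparison. These medians are from the fit over both batches, which set U46619 and EGF+U46619 of 1 batch against Control or EGF cultures of both. Values within the EGF/U46619 batch are given below for single members.

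In the EGF/U46619 batch, Cx3cl1 was at 62.8, 74.5, 82.0, 58.7 and 99.7 FPM in the Control cultures of sets 1 to 5, and at 44.5, 27.4, 66.4, 35.4 and 77.7 FPM with U46619. With EGF the same sets had 80.2, 82.2, 134, 60.4 and 106 FPM, and with EGF+U46619 they had 49.0, 18.7, 60.5, 32.3 and 60.7 FPM. Every set was lower with U46619 than without it, and the ranges of EGF+U46619 and EGF overlapped only at their edges, 60.7 against 60.4 FPM. Over all Control cultures (54.2 to 113 FPM, median 70.9, n = 10) the log2-fold change was −0.77 ± 0.23 with U46619 (FDR = 0.0468 in edgeR and 0.0175 in DESeq2) and −0.95 ± 0.23 with EGF+U46619 (FDR = 0.00970 in edgeR). Against EGF it was −1.21 ± 0.23 (FDR = 0.00241). Within the EGF/U46619 batch alone the 3 values were −0.67 (FDR = 0.0387), −0.85 (FDR = 0.00867) and −1.11 (FDR = 0.00416, edgeR). Without the Control library that stands apart, the first 2 values were −0.85 (FDR = 0.0252) and −1.04 (FDR = 0.00403). With batch as a further term the U46619 value was −0.68 and was not called (FDR = 0.159 in edgeR), and with no low-count filter the call was lost as well (FDR = 0.0772), while EGF+U46619 kept its call in both. The U46619 call was also lost when any 1 of 6 culture sets was left out, sets 1, 2, 3 and 4 of the EGF/U46619 batch and sets 1 and 6 of the other. The EGF+U46619 call was lost without set 2 of the EGF/U46619 batch.

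Endothelial markers in the same libraries were at 1169, 160, 181.6, 269 and 21.1 FPM in Control and at 1050, 147, 128, 255 and 17.8 FPM with U46619 (summed, sets 1 to 5). Fibroblast markers went from 824, 2096, 1527, 1023 and 3523 FPM to 605, 1172, 1065, 674 and 2377 FPM. Both sums were lower with U46619 in every set of the batch, and their part in the Cx3cl1 values was not tested. The fit over both batches set U46619, measured in 1 batch, against Control of both. In it 0 of 9 endothelial markers were called by edgeR and DESeq2 together, 1 by DESeq2 alone, and 2 had both unadjusted p below 0.05. Their median log2-fold change was −1.68 there and −0.26 within the EGF/U46619 batch alone. Of 7 fibroblast markers 1 fell in the fit over both batches (Pi16), with a median of −1.21, and 2 fell within the batch, with a median of −1.18.

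Csf1 after 48 h was at 895, 687, 843, 1426 and 1327 FPM in Control (sets 1 to 5 of the EGF/U46619 batch), at 1370, 931, 1870, 2308 and 1460 FPM with U46619 and at 1534, 918, 2112, 2187 and 1110 FPM with EGF+U46619. The groups overlapped. U46619 was higher in 5 of 5 sets and EGF+U46619 in 4 of 5, set 5 being the exception. The log2-fold change was 0.55 ± 0.17 with U46619, whose FDR of 0.0550 in edgeR missed the threshold that DESeq2's 0.0330 passed, and 0.53 ± 0.17 with EGF+U46619 (FDR = 0.0493 in edgeR and 0.0310 in DESeq2). Within the batch alone the values were 0.59 (FDR = 0.0797) and 0.56 (FDR = 0.0813, edgeR), neither of them called, and without the Control library that stands apart the EGF+U46619 value of 0.53 was not called (FDR = 0.0626). The EGF+U46619 call of Csf1 was lost when any 1 of 7 culture sets was left out, sets 1 to 4 of the EGF/U46619 batch and sets 2, 5 and 6 of the other.

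**Figure D4:**
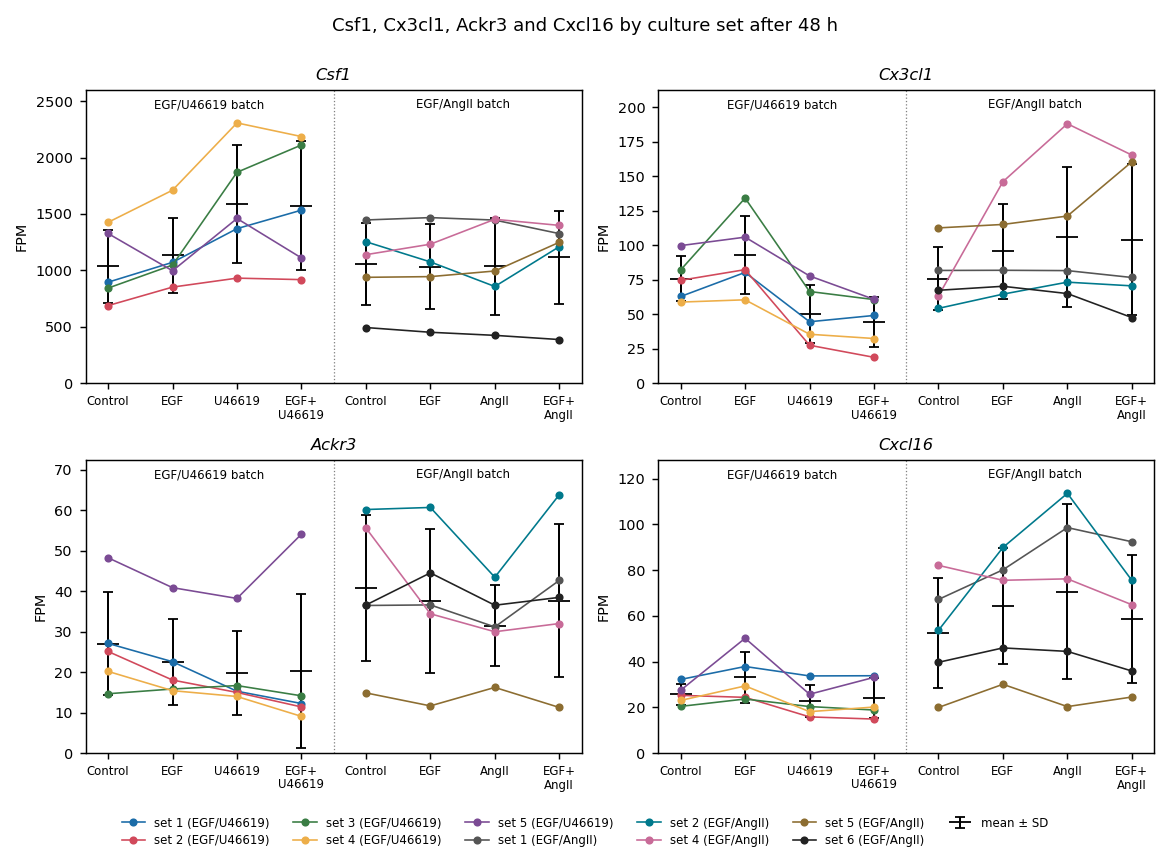
FPM of Csf1, Cx3cl1, Ackr3 and Cxcl16 after 48 h in the 4 groups of the EGF/U46619 batch (left of the dotted line) and of the EGF/AngII batch (right), with 1 line per culture set and black bars for the mean ± SD over 5 sets. Cx3cl1 is lower in all 5 sets with U46619, Csf1 is higher in all 5, and Cxcl16 Control values differ between the batches.

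The 10 culture sets carry only 5 mouse numbers in the labels, which the main fit followed. With the culture set as the replicate block in place of the mouse number, 2 members were called with U46619 (Csf1 higher, FDR = 0.00661, and Cx3cl1 lower, FDR = 0.0152, edgeR) and 4 with EGF+U46619, where Ackr3 and Cxcl1 were added as lower. EGF+U46619 against EGF then called 3 members, Csf1, Cx3cl1 and Cxcl16. The log2-fold changes of Csf1 were 0.54 and 0.53 in that fit and those of Cx3cl1 −0.68 and −0.86.

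Ackr3 after 48 h was at 27.1, 25.1, 14.7, 20.2 and 48.2 FPM in Control, at 15.3, 15.0, 16.7, 13.97 and 38.2 FPM with U46619 and at 12.2, 11.4, 14.1, 9.06 and 54.1 FPM with EGF+U46619 (sets 1 to 5). It was lower in 4 of 5 sets in either case, with set 3 the exception for U46619 and set 5 for EGF+U46619. The log2-fold changes of −0.64 ± 0.38 and −0.74 ± 0.39 were not called (FDR = 0.327 and 0.231, edgeR). Within the EGF/U46619 batch alone they were −0.47 (FDR = 0.134) and −0.65 (FDR = 0.0349, edgeR), and Ackr3 was called there with EGF+U46619. Within the EGF/U46619 batch, the U46619 value of Cxcl16 was −0.19 ± 0.19 and that of EGF+U46619 was −0.15 ± 0.19, and Cxcl16 was called in neither. The fit over both batches gave −0.62 ± 0.36 and −0.58 ± 0.36 (FDR = 0.311 and 0.318, edgeR), and Control held 25.7 ± 4.49 FPM in the EGF/U46619 batch and 52.5 ± 24.1 FPM in the other (n = 5 each). The leukocyte marker sum of the Control cultures after 48 h ran from 48.5 to 818 FPM, and its part in the Cxcl16 levels was not tested. Cxcl12 was not called after 48 h with U46619 (−0.21 ± 0.22) or EGF+U46619 (−0.41 ± 0.22, FDR = 0.241).

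EGF called no member after 48 h, Ccl2 and Ccl7 included. It called 0 of 9 members and 0% of genes (0 by edgeR and 0 by DESeq2 alone, with 117 genes and 0 members at an unadjusted p under 0.05 in both), and the log2-fold changes were 0.25 ± 0.26 for Ccl2 and 0.16 ± 0.30 for Ccl7. Without the Control library that stands apart they were 0.13 ± 0.25 and 0.02 ± 0.28. Its set had the highest differences of both genes (1.46 and 2.08). Within the EGF/U46619 batch they were 0.42 ± 0.18 and 0.07 ± 0.39, not called. Set 5 of the EGF/U46619 batch had the highest Ccl2 in all its groups, 251 FPM in Control, 337 FPM with EGF, 329 FPM after U46619 and 312 FPM after EGF+U46619. The same set had 25.7 FPM of Cxcl1 and 6.28 FPM of Cxcl5 with U46619, where the other sets had at most 9.24 and 0.593 FPM. Ccl11 with U46619 was at 0, 0.515, 0.148, 0.0618 and 0.661 FPM against 0.385, 6.10, 0.939, 0.0890 and 0.654 FPM in Control, and the log2-fold change of −2.20 ± 0.86 was not called (FDR = 0.1296 in edgeR). Within the batch it was −2.68 ± 0.83 (FDR = 0.0463 in edgeR), with means under 5 FPM.

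AngII and EGF+AngII also called 0 members and 0% of genes each after 48 h (0 by either tool alone). Within the culture sets, Cxcl16 with AngII differed from Control by a median of 0.16 on the log2 scale, from −0.11 in set 4 to 1.07 in set 2. Set 4 holds the Control library that stands apart, without which the fitted log2-fold change was 0.88 ± 0.34. The Control library of set 2 also differed from its set in the endothelial and leukocyte sums. With both unadjusted p below 0.05 there were 232 genes for AngII, with Cxcl16 the 1 member (0.75 ± 0.34; 0.42 ± 0.43 within the EGF/AngII batch), and 276 genes for EGF+AngII with 0 members. Adding EGF to U46619 called 0 members and 0% of genes after 48 h, and the interaction of EGF and U46619 called 0 members and 0% as well (0 by either tool alone in both, with 47 and 30 genes and 0 members at an unadjusted p under 0.05).

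**Figure D5:**
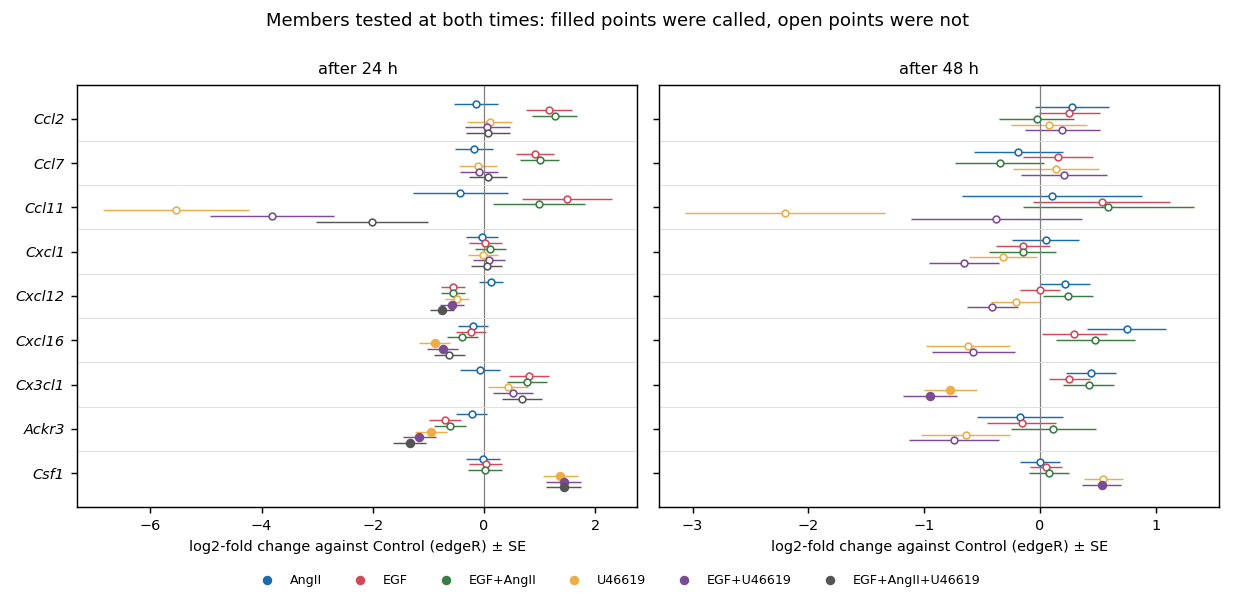
Log2-fold changes against Control with their SE (edgeR) for the 9 members tested at both times, after 24 h (left) and 48 h (right), in 1 colour per incubation. Filled points were called by both tools with at least 5 FPM and open points were not. Csf1 lies at 1.37 to 1.43 with U46619 after 24 h and at 0.53 to 0.55 after 48 h, and Ccl11 lies far to the left but open.

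The receptors through which these chemokines act were mostly not measured. Of 25 chemokine and colony-stimulating factor receptor genes, 15 are listed at 0 everywhere, among them those for Ccl2, Cx3cl1 and Cxcl16 (Ccr2, Cx3cr1 and Cxcr6), and 4 were tested. Since whole chromosomes are listed at 0, a 0 in every library is not read as absent expression. Csf1r, the receptor of Csf1, rose with U46619 after 24 h from 7.59 ± 5.04 to 15.3 ± 8.39 FPM (SD, n = 6), for which the log2-fold change was 1.07 ± 0.23 (FDR = 0.000602 in edgeR). It rose with EGF+U46619 by 0.66 ± 0.23 and with EGF+AngII+U46619 by 0.85 ± 0.23. After 48 h it was not called (0.62 ± 0.43 with U46619). Csf1r is also one of the leukocyte markers, of which Lyz2 and Cd14 fell with U46619 after 24 h (−1.32 ± 0.23 and −0.86 ± 0.19). Cxcr4, the signalling receptor of Cxcl12, was at 19.2 ± 24.4 FPM in Control and 14.6 ± 17.9 FPM with U46619 and was not called. Csf2ra fell with EGF+AngII+U46619 alone (−0.68 ± 0.21), and Ccr10 was called in no comparison with Control.

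Among 30 other chemokine genes, 12 were tested, and with U46619 after 24 h 1 rose and 2 fell. Of all genes tested, 12.9% were called higher and 14% lower in this comparison. Ccl17, a T-cell chemokine, rose from 0.543 ± 0.460 to 5.42 ± 4.12 FPM (log2-fold change 3.23 ± 0.62, FDR = 0.000202 in edgeR). Ccl6 fell by 0.99 ± 0.35 and Cxcl15 by 1.60 ± 0.45 on the log2 scale. EGF+U46619 lowered Ccl6, Cxcl15 and Ccl27a (3 of 12 lower, 0 higher), with 16.2% of all genes called higher and 16% lower. Ccl17 with EGF+U46619 was at 4.10 ± 3.66 FPM, with a log2-fold change of 2.86 ± 0.62 (FDR = 0.000480 in edgeR), and was not called since its mean lay under 5 FPM. After 48 h EGF+U46619 lowered Ccl6 alone (−1.83 ± 0.44), where 3.84% of all genes were called higher and 2.99% lower. The median of the 12 was −0.79 with U46619 after 24 h, against −0.06 over all genes tested.

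Of 11 genes for chemokine release and other leukocyte growth factors, 7 were tested and 2 rose and 1 fell with U46619 after 24 h. The shares over all genes tested were 12.9% higher and 14% lower. Mif, the macrophage migration inhibitory factor, went from 251 ± 107 to 526 ± 170 FPM (1.09 ± 0.26, FDR = 0.00179 in edgeR) and was still higher after 48 h (0.76 ± 0.16, FDR = 0.00494). Il6 rose from 3.54 ± 3.81 to 9.04 ± 6.88 FPM (1.83 ± 0.43), and Flt3l, a growth factor of dendritic cells, fell from 5.42 ± 3.25 to 2.21 ± 0.653 FPM (−1.21 ± 0.29). Tslp was called in no comparison with Control. Adam10, which sheds Cx3cl1 and Cxcl16, and Il34, the other ligand of the Csf1 receptor, lie in the regions listed at 0.

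NF-kB factors and targets, which drive many chemokine genes, moved in both directions. Of 14 tested of 16, U46619 raised 3 and lowered 4 after 24 h. EGF+U46619 raised 2 and lowered 3, and EGF+AngII+U46619 raised 3 and lowered 4. Over all genes tested, the shares called higher were 12.9%, 16.2% and 17.4%, and those called lower 14%, 16% and 15.8%. Nfkbiz, an inducible co-regulator, rose from 11.8 ± 5.41 to 21.1 ± 9.66 FPM with U46619 (0.84 ± 0.23) and was called higher after 48 h as well (0.88 ± 0.19). Rel, an NF-kB subunit, rose by 0.65 ± 0.23 after 24 h. The inhibitors Nfkbia and Nfkbie fell, by 0.52 ± 0.15 and 0.49 ± 0.13 on the log2 scale, and Nfkbia went from 58.9 ± 22.1 to 43.9 ± 20.8 FPM. The median of the 14 was −0.13, against −0.06 over all genes tested. These lists of genes were chosen with results of these data known, and nothing beyond their counts is read from them.

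The likeness of other genes to a member was measured as Pearson's r over the 42 libraries of the 24 h incubation, on log2(FPM + 0.5) with the mean of each mouse subtracted, among 10603 genes. The points share mice and library depth, so r is a description. Differences between treatments were not subtracted, so r also reflects genes that moved with the same incubation. Among the genes most like Csf1 were Fgd3 (r = 0.967) and Capn2 (0.961), of which Capn2 encodes a calpain protease. Ccl2 and Ccl7, neighbours on chromosome 11, were each other's closest gene (r = 0.926), followed by the immediate early factor gene Egr2 (0.883) for Ccl2. Ccl11, the third gene of that cluster, was most like Tcf4 (0.925), and its r with Ccl2 was 0.520. For Ackr3 the closest genes were Dcaf6 (0.899), Cpq (0.895) and Mapre2 (0.893). Between members, r was −0.830 for Csf1 and Ccl11 and −0.537 for Csf1 and Ackr3.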

How the data were processed

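Poly(A) RNA of 82 aVSMC cultures was sequenced in pairs. The authors aligned the reads with HISAT2 2.1.0 to mm10 and deposited raw counts per gene and library made with featureCounts, in which reads with several mapping positions were counted. All count columns were used. Genes were scaled with the trimmed mean of M values in edgeR 4.0.16 (R 4.3.3), and FPM are counts per 1000000 of that scaled library size. Exon lengths came from the GRCm38 annotation.

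Genes passing filterByExpr (14653 after 24 h, 15796 after 48 h, 14528 at both) entered edgeR's quasi-likelihood fit. DESeq2 1.42.0 took all genes with a count and applied its own independent filtering. Each tool had mouse and treatment as terms and Benjamini-Hochberg adjustment over the genes it tested. A gene passing the filter at both times was called at an FDR under 0.05 in both tools with a mean of at least 5 FPM in a compared group. The SE of a log2-fold change was computed as its absolute size divided by the square root of edgeR's F statistic. It is approximate where counts are few. The tests were checked on simulated data. The 10 members were all named. Of each further list at most 4 genes were named, those called in most comparisons with Control, with ties broken by the size of the EGF+U46619 change after 24 h, and genes singled out beyond that, cell type markers included, were chosen after their values were seen. The members and lists were chosen with earlier results of these data known.

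After 24 h each replicate number marks 1 mouse in the labels. Libraries that share a number deviated together in 126 of 126 pairs of treatments after 24 h (correlation over 0.1, median 0.776). After 48 h the pairs were taken within a culture set, not within a mouse number, and 57 of 60 deviated together (median 0.810). At 48 h the labels give 5 mouse numbers for 10 culture sets, whereas the methods name a different mouse for each replicate, so a block by culture set was an alternative. Whether cultures that share a mouse number came from the same animal is unclear, and p-values then measure only the spread between these cultures.

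Alternatives were each tool alone, DESeq2 size factors, no low-count filter, no replicate block, a block by culture set, batch as a term, each batch alone and leaving out each replicate. Leaving out 1 Control library was added after seeing the data. The genes listed at 0 in all libraries (7732, on chromosomes 9, X, Y and MT and the end of chromosome 8) were not analysed here. Likeness was computed on log2(FPM + 0.5), with matplotlib 3.10.9 used for figures. A single gene named by likeness is not reported here. Promoter sequences are from RefSeq.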

Additional observations from a re-analysis of the deposited data

Results flagged for a closer look

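In 13 of 130 groups of cultures, 1 culture lay further from the others than Dixon's 95% limit on the log2(FPM + 0.5) scale, where chance alone gives about 1 in 20 groups, or 6.5. After 24 h, mouse 3 was highest for Ccl11 with EGF+U46619 (0.6249 FPM, next 0.102) and with EGF+AngII+U46619 (2.48 FPM, next 0.168), and lowest for Csf1 with EGF+AngII+U46619 (280 FPM, next 1631). Mouse 2 was lowest for Cx3cl1 in Control (12.2 FPM, next 62.3) and with EGF+AngII (27.3 FPM, next 114). Mouse 6 was highest for Cxcl5 in Control (1.18 FPM, next 0.193) and with EGF+U46619 (0.311 FPM, the others at 0).

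After 48 h, set 5 of the EGF/U46619 batch was highest for Cxcl5 with U46619 (6.28 FPM, next 0.593) and for Ackr3 with U46619 (38.2 FPM, next 16.7) and EGF+U46619 (54.1 FPM, next 14.1). Set 2 of that batch was highest for Ccl11 in Control (6.10 FPM, next 1.32). Set 6 of the EGF/AngII batch was lowest for Csf1 with EGF (450.7 FPM, next 851) and EGF+AngII (386 FPM, next 1210).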

How the results depend on the processing

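The 39 member log2-fold changes followed were those with an unadjusted p below 0.05 in edgeR's main fit. None of them reversed under any alternative run. Of their values, 480 kept their call or lack of one, 56 lost a call and 22 gained one. Other members could reverse. Ccl7 with U46619 after 48 h was at 0.14 in the main fit and at −0.21 within the EGF/U46619 batch alone. Without the replicate block, the members called went from 3 to 0 for U46619, from 4 to 1 for EGF+U46619, from 3 to 1 for EGF+AngII+U46619 and from 3 to 0 for EGF+U46619 against EGF after 24 h, and after 48 h from 1 to 0, from 2 to 0 and from 1 to 0 for U46619, EGF+U46619 and EGF+U46619 against EGF. The genes called in these 7 comparisons were 1040, 1808, 2117, 87, 111, 202 and 99 without the block, against 3902, 4669, 4817, 1864, 589, 992 and 702 with it. With the replicate block by culture set, these 3 comparisons after 48 h called 2, 4 and 3 members (1522, 2158 and 1854 genes), and 2, 4 and 4 when the Control library that stands apart was also left out. Leaving that library out alone gave 1 for EGF+U46619 after 48 h. Batch as a further term gave 0 for U46619 and 1 for EGF+U46619 after 48 h. DESeq2 alone called 2 members for EGF+AngII after 24 h and 2 for U46619 after 48 h. With no low-count filter there was 1 for EGF+AngII after 24 h, and 0 for U46619 and 1 for EGF+U46619 after 48 h, while DESeq2 size factors gave 1 for EGF+U46619 after 48 h.

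Leaving out each replicate in turn gave 1 to 4 members for U46619, 0 to 1 for EGF+AngII, 2 to 4 for EGF+U46619, 3 to 4 for EGF+AngII+U46619 and 1 to 4 for EGF+U46619 against EGF after 24 h. After 48 h it gave 0 to 2 for U46619, 0 to 3 for EGF+U46619 and 1 to 2 for EGF+U46619 against EGF. The cause of these shifts was not tested. Ccl11 and Cxcl5 had few counts, so their fold changes are imprecise.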
